A study of Mus musculus with 18 samples.

Results

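The small leucine-rich proteoglycans (SLRPs) and versican are secreted matrix proteins, and 10 of their genes were followed by name: *Dcn*, *Bgn*, *Aspn*, *Lum*, *Fmod*, *Prelp*, *Omd*, *Ogn*, *Podn* and *Vcan*. These are 10 of the 54532 genes in the table, and all 10 were among the 14317 genes with enough counts to be tested. Poly(A) RNA was sequenced in 18 libraries of 10T1/2, a mouse fibroblast line that can enter several mesenchymal lineages, spelled CH310T1/2 and called mesenchymal stem cells in the labels. WT cells and FOXS1 KO clones 1 and 2 (KO1 and KO2) each gave 3 uninduced libraries and 3 libraries of stimulated cells. The authors describe growth to 2 days past confluence before DMII, so stimulated cells were collected later than that. They also describe overnight serum starvation before TGF-β1. Stimulation was TGF-β1 at 1 nM during 12 h, followed by 48 h in DMII, an adipogenic mix of insulin, indomethacin, dexamethasone and the phosphodiesterase inhibitor IBMX. Each KO line is 1 single-cell derived CRISPR-Cas9 clone, so an effect of the edit and a trait of the clone cannot be told apart, and uninduced cells received neither TGF-β1 nor DMII, so the effects of these cannot be told apart either.

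SLRPs have a short protein core of leucine-rich repeats that binds collagen fibrils and sets their diameter and spacing. Decorin (*Dcn*), biglycan (*Bgn*) and asporin (*Aspn*) form class I, of which decorin and biglycan carry chondroitin or dermatan sulfate chains. Lumican (*Lum*), fibromodulin (*Fmod*), PRELP and osteomodulin (*Omd*) form class II, which includes keratan sulfate proteoglycans of cornea, tendon and bone, while osteoglycin (*Ogn*) belongs to class III and podocan (*Podn*) to class V. Versican (*Vcan*) is no SLRP. It is a large chondroitin sulfate proteoglycan that binds hyaluronan and fills the loose, swollen matrix of developing and wounded tissue.

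Of the 10 genes, 8 had promoter windows in the RefSeq table of build GRCm38.p6 (250 bases before and 50 bases after the start). The windows without an entry were those of *Dcn* and *Lum*, and *Podn* had 2, which gave 9 windows in all. The letters TGTTTAC, a core bound by many factors of the forkhead family, to which FOXS1 belongs, were searched on both strands. They occurred in 0 of the 9 windows, against 3.65% of 32851 promoters. So few windows cannot tell 0 from that share, and binding of FOXS1 was not tested. The letters CAGACA, bound by SMAD proteins downstream of TGF-β receptors, occurred in 2 windows, those of *Prelp* and *Podn*, against 21.04% of all promoters. *Prelp* held them at positions +16 and +26 after its start, in a stretch of 30 bases at chr1:133921362-133921391 on the minus strand. This stretch is shown because *Prelp* was higher in both clones under both treatments, with the matches in capitals. A link between these letters and the level of *Prelp* was not tested.
Prelp: tcaggCAGACAcacgCAGACAcgcaccaac
The 250 bases before the start are given next for the gene that responded in opposite directions in WT and clones (*Fmod*, chr1:134037004-134037253, plus strand) and for 3 neighbours on the same strand of chromosome 13 that were compared as a cluster (*Aspn*, chr13:49544193-49544442; *Omd*, chr13:49582212-49582461; *Ogn*, chr13:49607765-49608014). Capitals mark TATAAA on either strand, letters chosen after the data were seen, which occur in 13.62% of all promoters and whose matches overlap in *Ogn*.
Fmod: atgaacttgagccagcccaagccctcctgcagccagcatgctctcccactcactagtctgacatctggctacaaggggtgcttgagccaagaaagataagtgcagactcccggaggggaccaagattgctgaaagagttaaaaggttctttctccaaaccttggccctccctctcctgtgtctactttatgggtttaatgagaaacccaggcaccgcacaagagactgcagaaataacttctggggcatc
Aspn: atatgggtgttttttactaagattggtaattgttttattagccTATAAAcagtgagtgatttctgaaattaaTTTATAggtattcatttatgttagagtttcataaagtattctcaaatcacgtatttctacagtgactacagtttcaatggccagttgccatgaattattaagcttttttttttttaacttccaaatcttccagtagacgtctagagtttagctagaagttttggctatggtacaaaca
Omd: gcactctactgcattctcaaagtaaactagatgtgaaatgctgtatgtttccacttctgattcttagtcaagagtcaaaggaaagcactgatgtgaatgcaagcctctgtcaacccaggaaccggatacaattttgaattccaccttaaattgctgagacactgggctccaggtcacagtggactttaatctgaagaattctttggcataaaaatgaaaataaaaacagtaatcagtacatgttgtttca
Ogn: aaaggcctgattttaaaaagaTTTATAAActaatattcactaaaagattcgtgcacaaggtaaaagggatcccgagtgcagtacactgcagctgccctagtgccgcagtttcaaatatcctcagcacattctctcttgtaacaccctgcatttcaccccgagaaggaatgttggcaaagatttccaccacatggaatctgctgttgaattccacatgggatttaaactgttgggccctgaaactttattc
Neither the forkhead nor the SMAD letters were found in these 4 windows. Only *Aspn* and *Ogn* of the 8 genes held TATAAA, at -207 and -178 in *Aspn* and at -229 and -227 in *Ogn*. Windows of the 8 genes held between 1 and 41 CpG pairs, where the median of all promoters was 7, and the lowest number was that of *Omd*.

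Library totals ranged from 15576685 to 42005596 counts. *Foxs1*, the targeted gene, was at 2.23 ± 0.886 CPM (counts per 1000000 counts of the scaled library, mean ± SD with n = 3 throughout) in uninduced and 2.51 ± 0.641 CPM in stimulated WT cells. It was at 25.7 ± 2.04 and 54.5 ± 2.06 CPM in the libraries labelled KO1 and at 22.6 ± 1.44 and 39.9 ± 2.59 CPM in those labelled KO2, so counts over the whole gene do not show the edit and KO1 and KO2 are used here as the labels give them. The authors report disruption of the locus by sequencing of genomic DNA and, in both clones, loss of FOXS1 protein by western blot. All 7 fibroblast markers had counts in every group, with *Thy1* under 1 CPM in KO2, while *Ptprc* had none in any library and the macrophage, endothelial and epithelial lists summed to at most 7.92 CPM. Nothing in the labels says that replicates were separate cultures, so p-values measure the spread between these libraries, which may be technical.

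Biglycan was the most abundant of the 10 transcripts in every group. Levels are compared between genes as CPM per kb of gene length. For each of the 10 genes this length equals its bases under any annotated exon (5838 for *Dcn*, 6099 for *Bgn*). A single transcript can be shorter, by an amount that differs between genes, so orders and shares between genes depend on this length. The spread between libraries does not measure that error. In uninduced WT cells *Bgn* was at 754 ± 22.6 CPM per kb, followed by *Ogn* at 249 ± 16.9 and *Aspn* at 234 ± 14.9, whose libraries overlapped. *Vcan* stood at 89.4 ± 11.2, *Lum* at 42.9 ± 5.998, *Prelp* at 27.1 ± 1.95 and *Dcn* at 10.7 ± 2.08 CPM per kb. *Omd* (5.49 ± 0.987) and *Podn* (4.46 ± 0.526) overlapped, and *Fmod* was lowest at 2.12 ± 0.342 CPM per kb. Decorin, often among the most abundant SLRPs of fibroblasts, thus ranked 7 of 10 by this measure. Its rank could differ with the length of the transcript expressed.

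The order changed with stimulation and with clone. In stimulated WT cells *Bgn* (1170.3 ± 22.7 CPM per kb) was followed by *Aspn* (265 ± 5.66), *Vcan* (171 ± 2.74), *Ogn* (63.9 ± 3.48) and *Fmod* (28.1 ± 2.66), none of which overlapped with the next. *Prelp* was at 19.8 ± 1.600, *Lum* at 4.23 ± 0.433, *Omd* at 2.46 ± 0.271, *Dcn* at 1.03 ± 0.0723 and *Podn* at 0.129 ± 0.0678 CPM per kb. *Fmod* thus moved from the lowest place to rank 5. In uninduced KO1 cells the order was *Bgn* (912 ± 3.79), *Ogn* (516 ± 23.6), *Aspn* (366 ± 18.9), *Prelp* (237 ± 4.63) and *Vcan* (46.3 ± 0.902), then *Dcn* (16.01 ± 0.402), *Fmod* (10.8 ± 0.568), *Omd* (8.99 ± 0.994), *Lum* (7.02 ± 0.402) and *Podn* (1.41 ± 0.231). In uninduced KO2 cells it was *Bgn* (1089.9 ± 27.5), *Ogn* (311 ± 7.47), *Aspn* (276 ± 8.65), *Prelp* (169.6 ± 5.01) and *Fmod* (30.4 ± 1.38), then *Dcn* (28.3 ± 0.739), *Lum* (18.99 ± 0.237), *Vcan* (15.5 ± 0.687), *Omd* (7.11 ± 0.161) and *Podn* (0.808 ± 0.0701). Neighbours in these orders of uninduced clones did not overlap, and *Prelp* ranked 4 in both. In stimulated clones *Bgn* stood at 1634 ± 10.3 CPM per kb in KO1 and 1777 ± 14.8 in KO2, and *Vcan*, *Aspn* and *Prelp* followed with overlapping libraries, at 210.2 ± 25.6, 198 ± 14.2 and 182 ± 9.08 in KO1 and 110.1 ± 5.45, 106 ± 2.48 and 99.2 ± 7.23 in KO2. *Ogn* came next in both clones, at 54.4 ± 4.62 in KO1 and 23.5 ± 2.74 in KO2. In KO1 *Fmod* (4.02 ± 0.846) and *Omd* (3.45 ± 0.291) overlapped, *Dcn* stood at 1.803 ± 0.314, and *Podn* (0.251 ± 0.118) and *Lum* (0.191 ± 0.0656) overlapped at the end. In KO2 the remaining order was *Fmod* (5.79 ± 0.584), *Dcn* (2.41 ± 0.165), *Omd* (0.979 ± 0.114), *Lum* (0.2195 ± 0.0752) and *Podn* (0.0572 ± 0.0396), with no overlap.

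**Figure D1:**
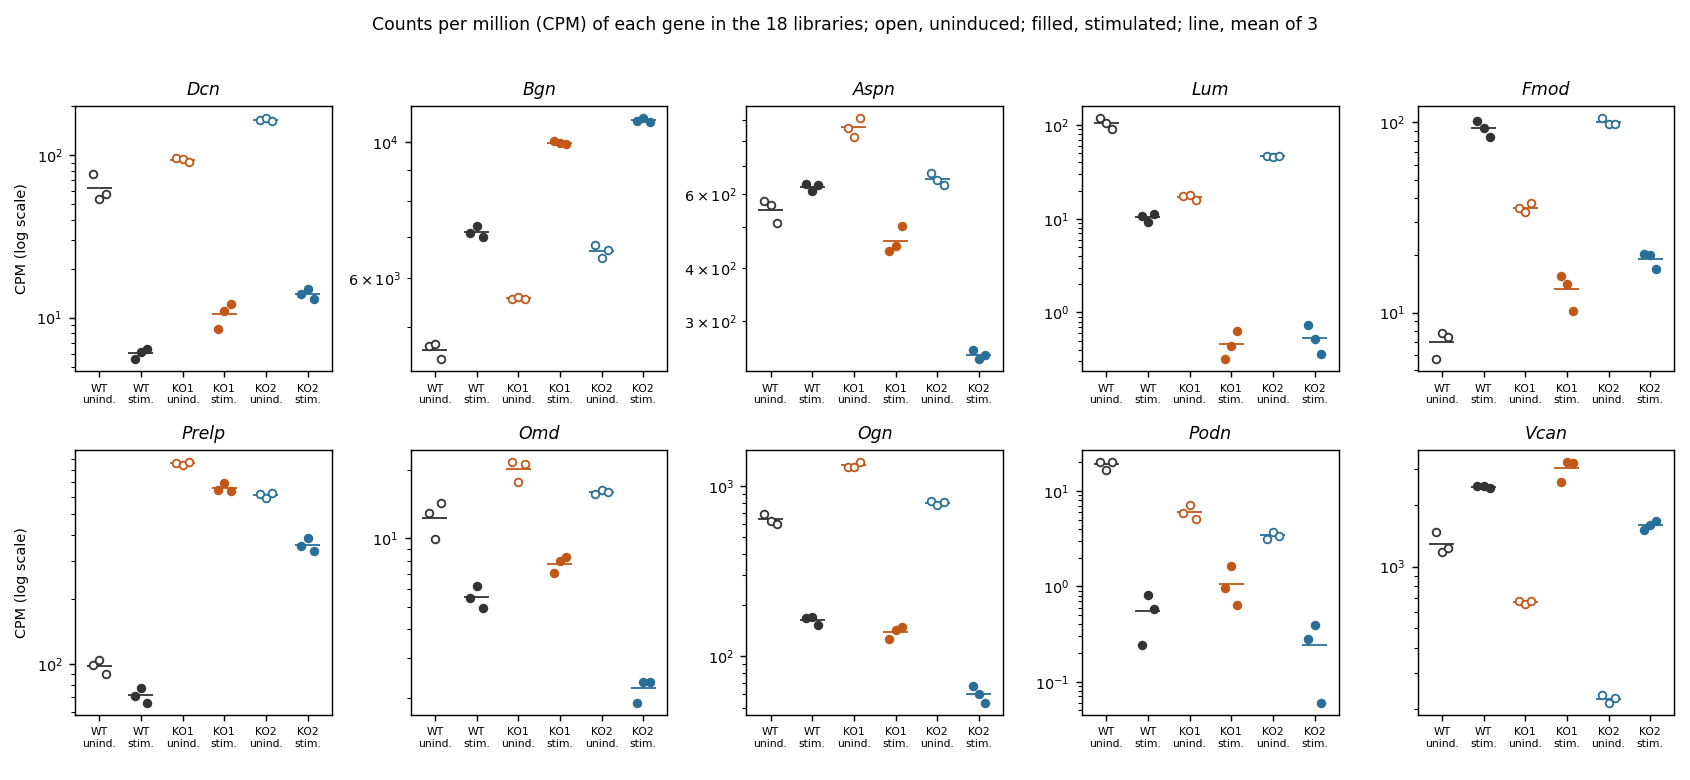
Level (CPM, log axis) of each of the 10 genes in each library (1 point), by genotype and treatment, with open points for uninduced and filled points for stimulated cells and a line at the mean of 3. Fmod is high in stimulated WT libraries (83.6 to 101 CPM) and in uninduced KO2 libraries (97.7 to 106 CPM), and Prelp is higher in all 12 clone libraries than in all 6 WT libraries.

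Stimulation left biglycan as a larger share of the SLRP transcripts. Of the summed CPM per kb of the 9 SLRP genes, *Bgn* made up 56.7 ± 1.15% in uninduced and 75.2 ± 0.463% in stimulated WT cells, 43.97 ± 1.03% and 78.6 ± 0.802% in KO1, and 56.4 ± 0.214% and 88.2 ± 0.323% in KO2. The sum of the other 8 SLRP genes went from 575 ± 38.9 to 385 ± 6.66 CPM per kb in WT, from 1163 ± 46.1 to 444 ± 18.4 in KO1 and from 842 ± 17.6 to 238 ± 8.64 in KO2. Uninduced and stimulated libraries of the same genotype did not overlap in either measure. All 10 genes together took 0.814 ± 0.0353% of the counts in uninduced and 1.001 ± 0.0154% in stimulated WT cells, 1.04 ± 0.00859% and 1.33 ± 0.0336% in KO1, and 0.994 ± 0.0253% and 1.15 ± 0.00916% in KO2. These shares are descriptions and were not tested, and in bulk libraries fewer cells that express a gene and less RNA per cell cannot be told apart.

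**Figure D2:**
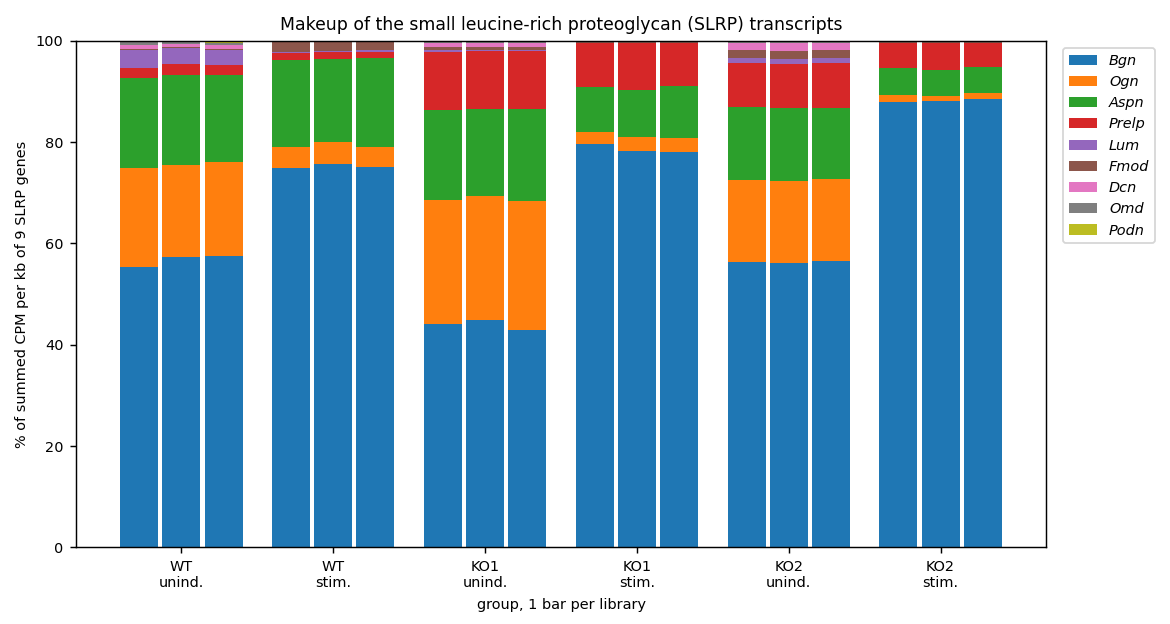
Share (%) of each of the 9 SLRP genes in their summed CPM per kb, 1 bar per library, in 6 groups of 3. The Bgn segment is larger in every stimulated group than in the uninduced group of the same genotype, up to a mean of 88.2% in KO2, and the Prelp segment is wider in the clones than in WT.

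The response of each genotype was asked by comparing stimulated with uninduced libraries in edgeR's quasi-likelihood test, where a gene was called at a Benjamini-Hochberg adjusted p below 0.05 and a change of more than 2-fold. Adjusted p-values are from this test throughout. A value after ± is the standard error (SE) for a log2 fold change, whether labelled or not. For a level or a share it is the SD. In WT cells 6 of the 10 genes were called, against 19.9% of all genes tested. Of these *Fmod* rose and *Dcn*, *Lum*, *Omd*, *Ogn* and *Podn* fell, where 6.25% of all genes rose and 13.6% fell. In KO1 7 of 10 were called (16.7% of all genes, 5.95% up and 10.7% down), with *Vcan* up and *Dcn*, *Lum*, *Fmod*, *Omd*, *Ogn* and *Podn* down, and in KO2 8 of 10 were called (17.7% of all genes, 6.46% up and 11.2% down), with *Vcan* up and the same genes as in KO1 together with *Aspn* down. The median log2 fold change of the 10 genes was -0.81 in WT, -1.40 in KO1 and -2.63 in KO2, beside -0.04, -0.02 and -0.02 over all genes tested. Scaling to library totals in place of TMM shifted the median of all genes by -0.22, -0.24 and -0.29 in the 3 responses and took the share of all calls that were higher from 31.4% to 19.7%, from 35.6% to 22.5% and from 36.6% to 21.5%.

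**Figure D3:**
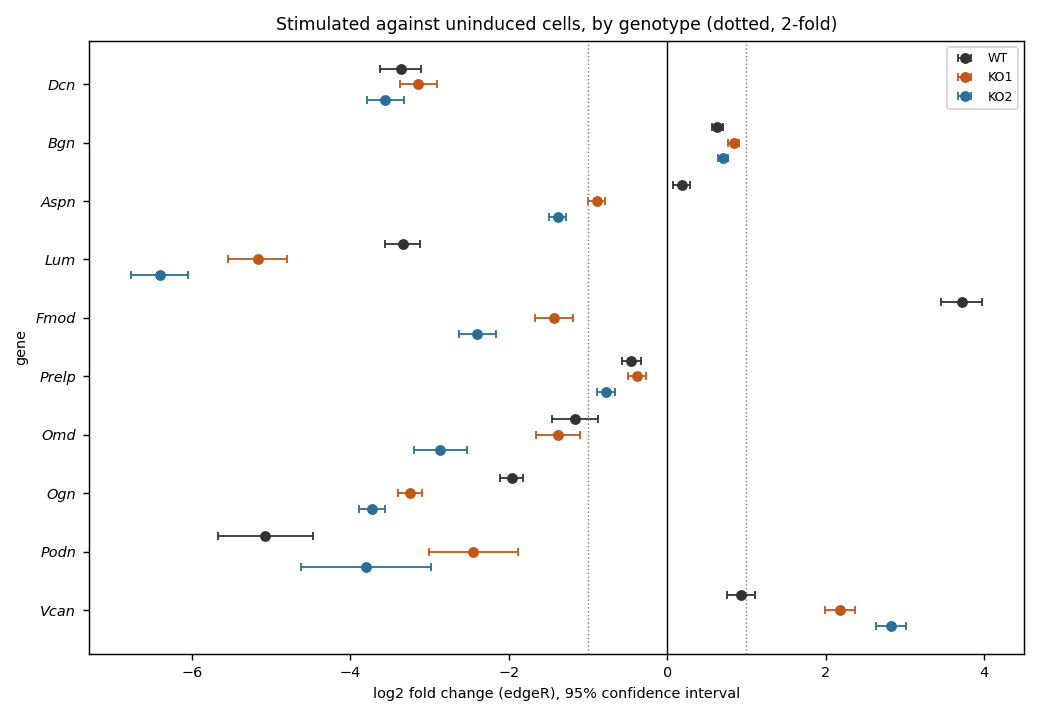
Log2 fold change of each gene between stimulated and uninduced cells with its 95% confidence interval (derived from edgeR's F statistic), in WT, KO1 and KO2 (n = 3 per group), with dotted lines at 2-fold. Fmod lies at 3.72 in WT and at -1.42 and -2.39 in the clones, while Dcn lies between -3.14 and -3.56.

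Each clone was also compared with WT within each treatment, which asks how the clones differ before and after stimulation. These comparisons share their WT libraries between clones. In uninduced cells 5 of 10 genes were called in KO1 (15.1% of all genes, 6.32% up and 8.73% down), with *Prelp*, *Fmod* and *Ogn* up and *Lum* and *Podn* down, and 6 in KO2 (15.1% of all genes, 5.54% up and 9.56% down), with *Dcn*, *Prelp* and *Fmod* up and *Lum*, *Podn* and *Vcan* down. In stimulated cells 3 were called in KO1 (19% of all genes, 9.42% up and 9.6% down), with *Prelp* up and *Lum* and *Fmod* down, and 7 in KO2 (16.9% of all genes, 7.95% up and 8.94% down), with *Dcn* and *Prelp* up and *Lum*, *Fmod*, *Omd*, *Ogn* and *Aspn* down. The median log2 fold change of the 10 genes was 0.62 in KO1 and 0.35 in KO2 without stimulation, and 0.39 in KO1 and -1.26 in KO2 with it, beside -0.01, -0.02, -0.02 and -0.01 over all genes. Scaling to library totals shifted the median of all genes by -0.11 in stimulated KO2 against WT.

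**Figure D4:**
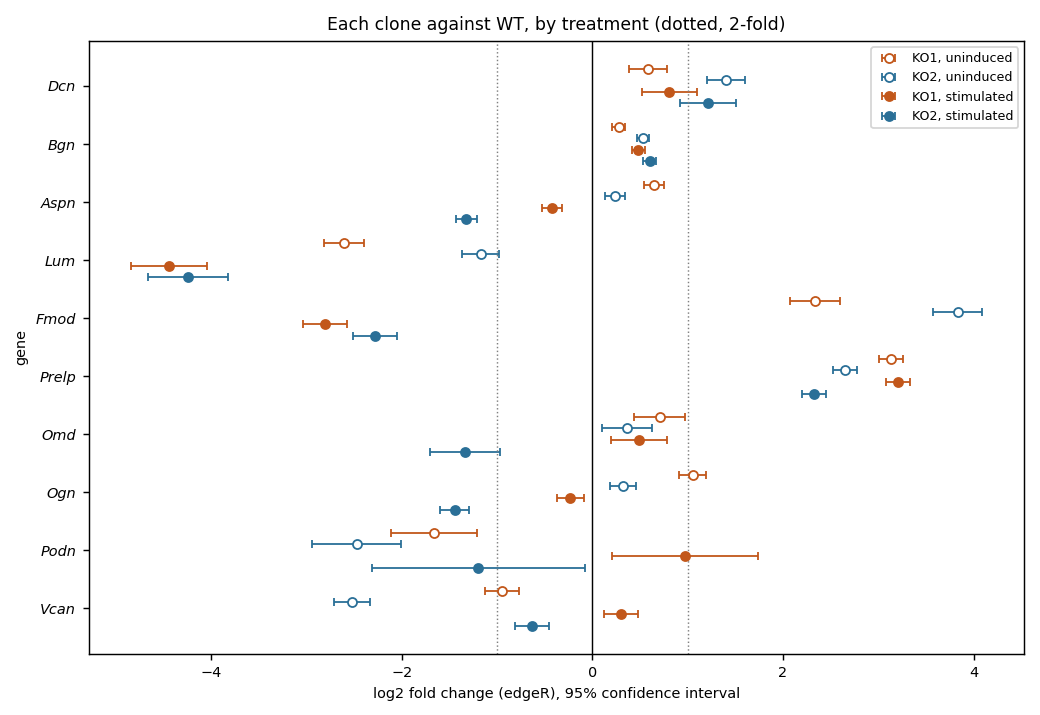
Log2 fold change of each gene between a clone and WT with its 95% confidence interval (derived from edgeR's F statistic), uninduced (open) and stimulated (filled), KO1 orange and KO2 blue (n = 3 per group), with dotted lines at 2-fold. Prelp lies between 2.33 and 3.21 in all 4 comparisons, and Fmod changes side between treatments, from 2.33 and 3.83 to -2.81 and -2.28.

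Decorin, a class I proteoglycan that binds collagen and TGF-β, fell in each genotype. Uninduced *Dcn* levels were 76.4, 53.7 and 57.4 CPM in the WT libraries, 95.3, 94.2 and 90.8 CPM in KO1 and 164, 169.7 and 161 CPM in KO2, and stimulated levels were 5.58, 6.13 and 6.403 CPM in WT, 8.52, 10.95 and 12.1 CPM in KO1 and 14.01, 15.04 and 13.1 CPM in KO2. Every stimulated library lay below every uninduced library, and within each treatment every KO2 library lay above every KO1 library and every KO1 library above every WT library. The response was 10.3-fold down in WT, a log2 fold change of -3.36 ± 0.12 (SE; adjusted p = 2.66e-17). It was -3.14 ± 0.11 (SE; adjusted p = 2.16e-17) in KO1 and -3.56 ± 0.11 (SE; adjusted p = 1.44e-18) in KO2. The difference of the response from that of WT was 0.23 ± 0.17 (SE; adjusted p = 0.352) in KO1, with a 95% confidence interval of -0.13 to 0.58, and -0.19 ± 0.17 (SE; adjusted p = 0.456) in KO2, with an interval of -0.55 to 0.16. *Dcn* was 2.65-fold higher in KO2 than in WT without stimulation and 2.32-fold higher with it (log2 1.40 ± 0.10 SE, adjusted p = 7.60e-12 and 1.21 ± 0.14 SE, adjusted p = 8.13e-08). In KO1 the same differences, 0.58 (adjusted p = 1.62e-05) and 0.81 (adjusted p = 2.65e-05), stayed under 2-fold.

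Biglycan, which binds collagen and can act as a ligand of Toll-like receptors, moved by less than 2-fold in every comparison. Its uninduced libraries held 4657, 4694 and 4438 CPM in WT, 5548, 5591 and 5555 CPM in KO1 and 6802, 6469 and 6671 CPM in KO2. Its stimulated libraries held 7115, 7286 and 7012 CPM in WT, 10041, 9941 and 9924 CPM in KO1 and 10802, 10941 and 10772 CPM in KO2. The 6 groups did not overlap. The response was 0.64 ± 0.033 (SE; adjusted p = 1.91e-16) on the log2 scale in WT, 0.84 ± 0.033 (SE; adjusted p = 2.40e-19) in KO1 and 0.71 ± 0.033 (SE; adjusted p = 1.62e-17) in KO2, each past the p threshold and under the fold threshold. Clones were above WT by 0.28 (KO1) and 0.53 (KO2) on the log2 scale without stimulation and by 0.48 and 0.60 with it, with adjusted p-values between 7.77e-16 and 2.67e-08.

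Asporin, a class I relative with an aspartate-rich start, fell in KO2, and its response differed from that of WT in both clones. Its uninduced levels were 578, 563 and 511 CPM in WT, 859, 819.9 and 909 CPM in KO1 and 672, 647 and 631 CPM in KO2. Stimulated levels were 633, 609 and 631 CPM in WT, 439.9, 452 and 503 CPM in KO1 and 256, 244 and 249 CPM in KO2. Stimulated WT libraries lay above the uninduced ones, and stimulated clone libraries below theirs. *Aspn* fell 2.603-fold in KO2 (log2 -1.38 ± 0.052 SE, adjusted p = 9.38e-20), was at -0.89 ± 0.051 (SE; adjusted p = 2.94e-15) in KO1, under the fold threshold, and was at 0.18 ± 0.051 (SE; adjusted p = 0.00292) in WT, a direction that became -0.0396 with scaling to library totals. The response was lower than in WT by 2.103-fold in KO1 and 2.95-fold in KO2 (log2 -1.07 ± 0.072 SE, adjusted p = 4.13e-13 and -1.56 ± 0.073 SE, adjusted p = 1.13e-16). Stimulated KO2 cells held 2.500-fold less *Aspn* than stimulated WT cells (log2 -1.32 ± 0.052 SE, adjusted p = 3.11e-19).

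Lumican, a keratan sulfate proteoglycan that keeps collagen fibrils thin in the cornea, fell in all genotypes and was under 1 CPM in the stimulated clones. Uninduced *Lum* levels were 119.5, 105 and 90.1 CPM in WT, 17.6, 17.9 and 16.1 CPM in KO1 and 47.1, 46.01 and 46.3 CPM in KO2. After stimulation they were 10.6, 9.199 and 11.3 CPM in WT, 0.319, 0.442 and 0.638 CPM in KO1 and 0.728, 0.523 and 0.361 CPM in KO2, the last 6 libraries holding between 6 and 14 counts each. Only the stimulated groups of KO1 and KO2 overlapped. *Lum* fell 10.1-fold in WT (log2 -3.34 ± 0.11 SE, adjusted p = 1.34e-21), 36.01-fold in KO1 (-5.17 ± 0.18 SE, adjusted p = 2.02e-20) and 84.9-fold in KO2 (-6.41 ± 0.17 SE, adjusted p = 2.64e-23). It was lower than in WT in both clones without stimulation, with log2 fold changes of -2.61 ± 0.10 (SE; adjusted p = 3.85e-19) in KO1 and -1.17 ± 0.093 (SE; adjusted p = 6.63e-12) in KO2. With stimulation the differences were -4.44 ± 0.19 (SE; adjusted p = 3.33e-18) and -4.24 ± 0.21 (SE; adjusted p = 4.59e-17), and the responses differed from that of WT by -1.83 ± 0.25 (SE; adjusted p = 9.69e-07) and -3.07 ± 0.25 (SE; adjusted p = 2.67e-11). Stimulated clones differed from each other by -0.20 ± 0.37 (SE; adjusted p = 0.708), with a 95% confidence interval of -0.96 to 0.56, and this value was 0.10 without stimulated KO2 replicate 1.

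Fibromodulin, a class II proteoglycan of tendon that guides collagen cross-linking, rose in WT and fell in both clones. Uninduced *Fmod* levels were 5.71, 7.81 and 7.47 CPM in WT, 35.5, 33.8 and 37.5 CPM in KO1 and 106, 97.7 and 97.9 CPM in KO2. Stimulated levels were 101, 93.8 and 83.6 CPM in WT, 15.5, 14.2 and 10.2 CPM in KO1 and 20.3, 20.2 and 16.9 CPM in KO2. Stimulated WT and uninduced KO2 libraries overlapped at the top, and uninduced WT libraries were the lowest. *Fmod* rose 13.2-fold in WT (log2 3.72 ± 0.12 SE, adjusted p = 1.68e-18) and fell 2.68-fold in KO1 (-1.42 ± 0.12 SE, adjusted p = 1.19e-10) and 5.26-fold in KO2 (-2.39 ± 0.11 SE, adjusted p = 1.63e-15). The difference in response was -5.14 ± 0.17 (SE; adjusted p = 8.19e-18) in KO1 and -6.11 ± 0.17 (SE; adjusted p = 2.46e-19) in KO2. Without stimulation *Fmod* was 5.04-fold higher in KO1 and 14.2-fold higher in KO2 than in WT (log2 2.33 ± 0.13 SE, adjusted p = 6.48e-14 and 3.83 ± 0.12 SE, adjusted p = 1.40e-18). With stimulation it was 6.999-fold and 4.85-fold lower (log2 -2.81 ± 0.11 SE, adjusted p = 8.48e-17 and -2.28 ± 0.11 SE, adjusted p = 5.08e-15). Levels of tenocyte and myofibroblast markers stand beside these values. The 5 tenocyte markers summed to 92.1 to 109.7 CPM in uninduced and 83.8 to 94.6 CPM in stimulated WT libraries, 23.97 to 25.2 and 22.9 to 24.2 CPM in KO1 and 31.8 to 35.5 and 27.1 to 33.3 CPM in KO2. Their levels in WT went different ways on stimulation, with *Tnmd* from 76.2 ± 4.59 to 13.5 ± 1.47 CPM, *Thbs4* from 13.8 ± 1.76 to 11.4 ± 1.46, *Scx* from 3.24 ± 1.46 to 32.04 ± 2.06 and *Mkx* from 6.89 ± 1.65 to 31.3 ± 1.75 CPM. In KO1 *Tnmd* went from 6.42 ± 0.991 to 0.447 ± 0.0376, *Scx* from 9.01 ± 1.37 to 6.42 ± 1.02 and *Mkx* from 9.07 ± 0.621 to 16.6 ± 0.8803 CPM. In KO2 *Tnmd* went from 12.4 ± 1.07 to 0.391 ± 0.212, *Scx* from 12.6 ± 0.473 to 14.7 ± 2.82 and *Mkx* from 8.59 ± 0.758 to 14.1 ± 0.417 CPM. *Kera* was under 1 CPM in each group, as was *Thbs4* in the clones, with 0 counts in uninduced KO2. The 5 smooth muscle or myofibroblast markers summed to 255 to 295 CPM in uninduced and 1981 to 2135 CPM in stimulated WT cells, 417 to 429 and 303 to 317 CPM in KO1 and 189.7 to 202 and 299 to 339 CPM in KO2, nearly all of it *Acta2*, with *Cnn1* at 0 in uninduced KO1. Their part in the *Fmod* result was not tested.

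PRELP, an arginine- and proline-rich class II protein that binds heparan sulfate, was higher in both clones whatever the treatment. Uninduced *Prelp* levels were 99.2, 104 and 90.1 CPM in WT, 858, 841 and 874 CPM in KO1 and 621, 592 and 626 CPM in KO2. Stimulated levels were 70.8, 77.5 and 66.01 CPM in WT, 642, 698 and 639.6 CPM in KO1 and 353, 387 and 336 CPM in KO2. The lowest clone library (336 CPM) lay above the highest WT library (104 CPM). *Prelp* was 8.78-fold higher in KO1 and 6.28-fold higher in KO2 without stimulation (log2 3.13 ± 0.062 SE, adjusted p = 8.15e-26 and 2.65 ± 0.061 SE, adjusted p = 2.40e-24). With stimulation it was 9.23-fold and 5.02-fold higher (log2 3.21 ± 0.063 SE, adjusted p = 2.93e-26 and 2.33 ± 0.061 SE, adjusted p = 3.82e-23). The response was under 2-fold in each genotype, at -0.45 in WT (adjusted p = 2.33e-07), -0.38 in KO1 (adjusted p = 1.37e-06) and -0.77 in KO2 (adjusted p = 1.28e-12), and that of KO2 passed 2-fold at -1.07 with scaling to library totals. Of the exonic bases of *Prelp*, 9.68% lie under exons of the antisense gene *Gm15851*, which held 8 counts over all libraries, and the strand setting of the counting is not given in the sources used here.

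Osteomodulin, a bone matrix proteoglycan, fell in all genotypes, and further in KO2 than in WT. Its levels without stimulation were 12.9, 9.91 and 14.3 CPM in WT, 21.7, 17.6 and 21.3 CPM in KO1 and 15.6, 16.3 and 16.00 CPM in KO2. With stimulation they were 5.48, 6.18 and 4.96 CPM in WT, 7.03, 7.96 and 8.29 CPM in KO1 and 1.905, 2.35 and 2.35 CPM in KO2. Stimulated KO2 libraries were below all others. *Omd* fell 2.23-fold in WT (log2 -1.16 ± 0.14 SE, adjusted p = 3.06e-08), 2.599-fold in KO1 (-1.38 ± 0.13 SE, adjusted p = 4.25e-10) and 7.27-fold in KO2 (-2.86 ± 0.16 SE, adjusted p = 2.59e-15). The response of KO2 differed from that of WT by -1.70 ± 0.22 (SE; adjusted p = 3.76e-07), and that of KO1 by -0.22 ± 0.20 (SE; adjusted p = 0.443), with a 95% confidence interval of -0.62 to 0.18. Stimulated KO2 cells were 2.52-fold below stimulated WT cells (log2 -1.34 ± 0.18 SE, adjusted p = 2.17e-07). The 7 osteoblast markers summed to between 69.5 and 115 CPM in all 18 libraries, with *Bglap* at 0 in each stimulated group. Members of this list went opposite ways in WT, with *Phex* from 36.5 ± 2.52 to 1.59 ± 0.339 CPM and *Alpl* from 0.0127 ± 0.02201 to 11.4 ± 1.66 CPM.

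Osteoglycin, the class III member also called mimecan, had the second highest mean of the SLRP genes in each uninduced group. Without stimulation *Ogn* was at 686, 627 and 601 CPM in WT, 1288, 1287 and 1393 CPM in KO1 and 815, 777 and 803 CPM in KO2. With stimulation it was at 168, 169.9 and 154 CPM in WT, 126, 142 and 149.6 CPM in KO1 and 67.5, 59.9 and 53.5 CPM in KO2. No groups overlapped, and KO1 held the highest uninduced and KO2 the lowest stimulated libraries. *Ogn* fell 3.89-fold in WT (log2 -1.96 ± 0.070 SE, adjusted p = 3.13e-17), 9.48-fold in KO1 (-3.24 ± 0.073 SE, adjusted p = 4.32e-21) and 13.2-fold in KO2 (-3.73 ± 0.077 SE, adjusted p = 6.59e-22). These responses differed from that of WT by -1.28 ± 0.10 (SE; adjusted p = 1.61e-10) in KO1 and -1.77 ± 0.10 (SE; adjusted p = 9.83e-13) in KO2. Uninduced KO1 cells were 2.07-fold above WT (log2 1.05 ± 0.067 SE, adjusted p = 3.59e-12) and stimulated KO2 cells 2.72-fold below it (log2 -1.44 ± 0.073 SE, adjusted p = 3.58e-14).

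Podocan, the class V member, was the least abundant of the 10 genes by mean in 4 of the 6 groups. Uninduced levels were 20.4, 16.5 and 20.3 CPM in WT, 5.89, 7.08 and 5.13 CPM in KO1 and 3.17, 3.76 and 3.42 CPM in KO2. Stimulated levels were 0.245, 0.821 and 0.586 CPM in WT, 0.958, 1.62 and 0.638 CPM in KO1 and 0.2801, 0.392 and 0.0601 CPM in KO2, which correspond to 5, 19 and 13 counts, 18, 44 and 14 counts, and 5, 6 and 1 counts. Each stimulated group lay below its uninduced group, and the stimulated WT libraries overlapped with those of both clones. *Podn* fell 33.7-fold in WT (log2 -5.07 ± 0.29 SE, adjusted p = 2.64e-15), 5.44-fold in KO1 (-2.44 ± 0.27 SE, adjusted p = 7.89e-09) and 13.9-fold in KO2 (-3.80 ± 0.40 SE, adjusted p = 2.22e-09). The fall was smaller in KO1 than in WT by 2.63 ± 0.43 (SE; adjusted p = 1.41e-05), and in KO2 the difference was 1.28 ± 0.66 (SE; adjusted p = 0.154), with a 95% confidence interval of -0.08 to 2.63. Uninduced clones were below WT, at log2 fold changes of -1.66 ± 0.22 (SE; adjusted p = 2.00e-07) in KO1 and -2.47 ± 0.23 (SE; adjusted p = 1.70e-10) in KO2. With stimulation KO1 differed from WT by 0.97 ± 0.37 (SE; adjusted p = 0.0267), under 2-fold, and KO2 by -1.20 ± 0.54 (SE; adjusted p = 0.0632), past 2-fold and not past the p threshold. Both calls turned on single libraries at these counts. KO1 was called without stimulated WT replicate 2 (1.38) or without stimulated KO1 replicate 1 (1.05) or 3 (1.25). KO2 was called without stimulated WT replicate 1 (-1.53), stimulated KO1 replicate 2 (-1.19) or stimulated KO2 replicate 2 (-1.66), in DESeq2 (-1.22), with library totals (-1.30) and without a filter on low counts (-1.22).

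Versican was lower in uninduced KO2 than in WT, and its response was larger in both clones. Uninduced *Vcan* levels were 1478, 1174 and 1228 CPM in WT, 679, 655 and 676 CPM in KO1 and 234, 214 and 226 CPM in KO2. Stimulated levels were 2489.6, 2497 and 2425 CPM in WT, 2613, 3272 and 3236 CPM in KO1 and 1509.95, 1599 and 1667 CPM in KO2. Every stimulated library lay above every uninduced library, and KO2 was lowest in both treatments. *Vcan* rose 4.54-fold in KO1 (log2 2.18 ± 0.086 SE, adjusted p = 7.46e-13) and 7.08-fold in KO2 (2.82 ± 0.089 SE, adjusted p = 2.89e-14). In WT the response was 0.93 ± 0.083 (SE; adjusted p = 3.90e-08), under 2-fold, and 1.04 without uninduced WT replicate 1. The responses exceeded that of WT by 1.25 ± 0.12 (SE; adjusted p = 2.62e-07) in KO1 and 1.89 ± 0.12 (SE; adjusted p = 1.57e-09) in KO2. Without stimulation *Vcan* was 5.76-fold lower in KO2 than in WT (log2 -2.52 ± 0.088 SE, adjusted p = 1.68e-13), and in KO1 the difference was -0.95 ± 0.084 (SE; adjusted p = 4.95e-08), which passed 2-fold at -1.01 without uninduced WT replicate 2. With stimulation the differences from WT were 0.30 in KO1 (adjusted p = 0.00505) and -0.63 in KO2 (adjusted p = 5.17e-06), both under 2-fold. The 8 chondrocyte markers, of a lineage rich in matrix proteoglycans, summed to 1159.96 to 1308 CPM in uninduced and 1107 to 1255 CPM in stimulated WT libraries, 949.8 to 979 and 1436 to 1545 CPM in KO1 and 1574 to 1661 and 2504 to 2684 CPM in KO2. *Col2a1* and *Sox9* made up most of this and went opposite ways on stimulation. *Col2a1* went from 669.8 ± 40.8 to 895 ± 51.2 CPM in WT, from 402 ± 13.2 to 1009.6 ± 65.2 in KO1 and from 1030.1 ± 36.3 to 2152 ± 97.3 in KO2. *Sox9* went from 443 ± 27.8 to 272 ± 19.7 CPM in WT, from 541 ± 3.25 to 454 ± 15.7 in KO1 and from 544 ± 19.9 to 396 ± 5.47 in KO2, and the means of *Col9a1* and *Hapln1* were also lower after stimulation in each genotype. *Acan*, the aggrecan gene, was at 0 in all 6 KO1 libraries. The 6 adipocyte markers summed to 50.2 to 52.9 CPM in uninduced and 4.58 to 5.14 CPM in stimulated WT libraries, 35.1 to 40.8 and 66.02 to 79.1 CPM in KO1 and 39.2 to 42.3 and 20.1 to 26.7 CPM in KO2, with *Lep* at 0 in every group. Members of this list went different ways. In WT *Pparg* went from 49.5 ± 1.47 to 4.18 ± 0.365 and *Fabp4* from 1.12 ± 0.721 to 0.631 ± 0.377 CPM. In KO1 they went from 37.2 ± 3.48 to 35.03 ± 1.49 and from 0.837 ± 0.111 to 20.4 ± 4.37 CPM. In KO2 they went from 38.3 ± 1.76 to 20.07 ± 2.41 and from 1.18 ± 0.0840 to 3.16 ± 0.945 CPM. There *Plin1* went from 0.0610 ± 0.0582 to 0.646 ± 0.471 and *Adipoq* from 0.954 ± 0.0434 to 0.115 ± 0.112 CPM. The part of these cell states in the *Vcan* result was not tested.

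The clones differed from each other in several of these genes. Between uninduced clones 3 of 10 genes were called (8.67% of all genes, 4.89% higher and 3.78% lower in KO1), with *Vcan* 2.98-fold higher and *Lum* 2.71-fold and *Fmod* 2.82-fold lower in KO1 than in KO2 (log2 1.58 ± 0.086 SE, adjusted p = 1.59e-10, -1.44 ± 0.10 SE, adjusted p = 1.04e-12 and -1.50 ± 0.10 SE, adjusted p = 1.37e-11). Between stimulated clones 3 of 10 were called (9.98% of all genes, 5.5% higher and 4.48% lower in KO1), all higher in KO1, where *Omd* was 3.54-fold, *Podn* 4.49-fold and *Ogn* 2.31-fold above KO2 (log2 1.82 ± 0.17 SE, adjusted p = 5.37e-10, 2.17 ± 0.48 SE, adjusted p = 4.10e-04 and 1.21 ± 0.073 SE, adjusted p = 2.40e-12). *Aspn* (0.90, adjusted p = 1.04e-14), *Prelp* (0.88, adjusted p = 2.06e-13) and *Vcan* (0.93, adjusted p = 8.25e-08) were also higher in stimulated KO1 and under 2-fold, and *Vcan* passed 2-fold at 1.02 with library totals and at 1.03 without stimulated KO1 replicate 1. The median difference of KO1 from KO2 over the 10 genes was 0.37 without and 0.89 with stimulation, beside 0.0042 and 0 over all genes.

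The response itself differed from that of WT in 6 of 10 genes in KO1 (8.81% of all genes, 5.34% higher and 3.46% lower) and in 6 of 10 in KO2 (7.85% of all genes, 4.89% higher and 2.96% lower). *Podn* and *Vcan* responded higher and *Lum*, *Fmod*, *Ogn* and *Aspn* lower in KO1. *Vcan* responded higher and *Lum*, *Fmod*, *Ogn*, *Aspn* and *Omd* lower in KO2. The median difference of the 10 genes was -0.07 in KO1 and -0.94 in KO2, beside -0.01 over all genes in each. Both comparisons share the WT libraries. *Bgn*, *Dcn* and *Prelp* were called in neither clone. Of these, *Bgn* in KO1 (0.21, adjusted p = 8.02e-04) and *Prelp* in KO2 (-0.32, adjusted p = 0.00317) were past the p threshold and under 2-fold.

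Most of the SLRP genes lie in clusters, given here in the coordinates of the table (GRCm38). *Prelp* (chromosome 1, 133910304 to 133921414, minus strand) and *Fmod* (134037254 to 134048277, plus strand) lie with *Optc* in 151 kb. *Dcn* (chromosome 10, 97479609 to 97518143) and *Lum* (97565128 to 97572703) lie with *Kera* and *Epyc* in 203 kb, all on the plus strand. *Aspn* (chromosome 13, 49544443 to 49567565), *Omd* (49582462 to 49592822) and *Ogn* (49608046 to 49624501) lie with *Ecm2* in 120 kb on the plus strand, within *Cenpp* on the other strand. *Vcan* (chromosome 13, 89655312 to 89742509, minus strand), *Podn* (chromosome 4, 108014791 to 108096445, minus strand) and *Bgn* (chromosome X, 73483602 to 73495933, plus strand) lie apart. All 10 positions were those of GENCODE M21, and of the exons of the other members, only *Aspn* had bases under another gene (0.297%, *Cenpp*).

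The response of the cluster genes is set beside that of their neighbours. *Epyc*, the cartilage SLRP epiphycan, fell beside *Dcn* and *Lum* in each genotype, with log2 fold changes of -5.35 ± 0.43 (adjusted p = 3.68e-11) in WT, -2.97 ± 0.63 (adjusted p = 2.42e-04) in KO1 and -4.90 ± 0.71 (adjusted p = 1.54e-06) in KO2. *Epyc* held only 24, 9 and 3 counts in the stimulated groups of WT, KO1 and KO2, so the sizes of these falls are imprecise. It stood at 15.2 ± 5.17 CPM in uninduced WT cells and at 1.07 ± 0.467 and 1.91 ± 0.3797 CPM in uninduced KO1 and KO2, so that it was lower in the clones, where *Lum* was lower and *Dcn* was not. The nearest tested genes on each side of this cluster lie far from it. *Btg1* starts 863 kb before and *Atp2b1* 1435 kb after the start of *Dcn*. Responses of *Btg1* were 0.16 in WT, 1.61 in KO1 and 1.81 in KO2, and those of *Atp2b1* -0.32, 0.77 and 0.95. On chromosome 13 *Ecm2*, an SLRP-like matrix gene, fell with log2 fold changes of -2.74 ± 0.14 (adjusted p = 2.14e-16) in WT, -3.20 ± 0.13 (adjusted p = 3.92e-19) in KO1 and -3.19 ± 0.14 (adjusted p = 2.86e-18) in KO2, beside the falls of *Omd* and *Ogn*, while *Aspn* between *Ecm2* and *Omd* was at 0.18 in WT. *Cenpp*, which spans these genes, was at 0.04, 0.69 and -0.23 and the flanking *Nol8* at 0.89, 0.48 and 0.36. The pseudogene *Tes3-ps*, which flanks *Ecm2* on the other side, was at -0.26, 0.17 and 0.20. On chromosome 1 the responses of *Prelp* and *Fmod* were -0.45 and 3.72 in WT, -0.38 and -1.42 in KO1 and -0.77 and -2.39 in KO2. The flanking *Atp2b4* was at 1.18, 0.45 and 1.37 and *Btg2* at -1.04, -0.80 and 0.56 in the same order. Between clones and WT, *Prelp* and *Fmod* were both higher in uninduced clones, and after stimulation *Prelp* was higher and *Fmod* lower. Likewise on chromosome 10, *Dcn* was higher and *Lum* lower in uninduced KO2 than in WT. *Optc* and *Kera*, the opticin and keratocan genes, held 78 and 51 counts over all libraries and were not tested.

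**Figure D5:**
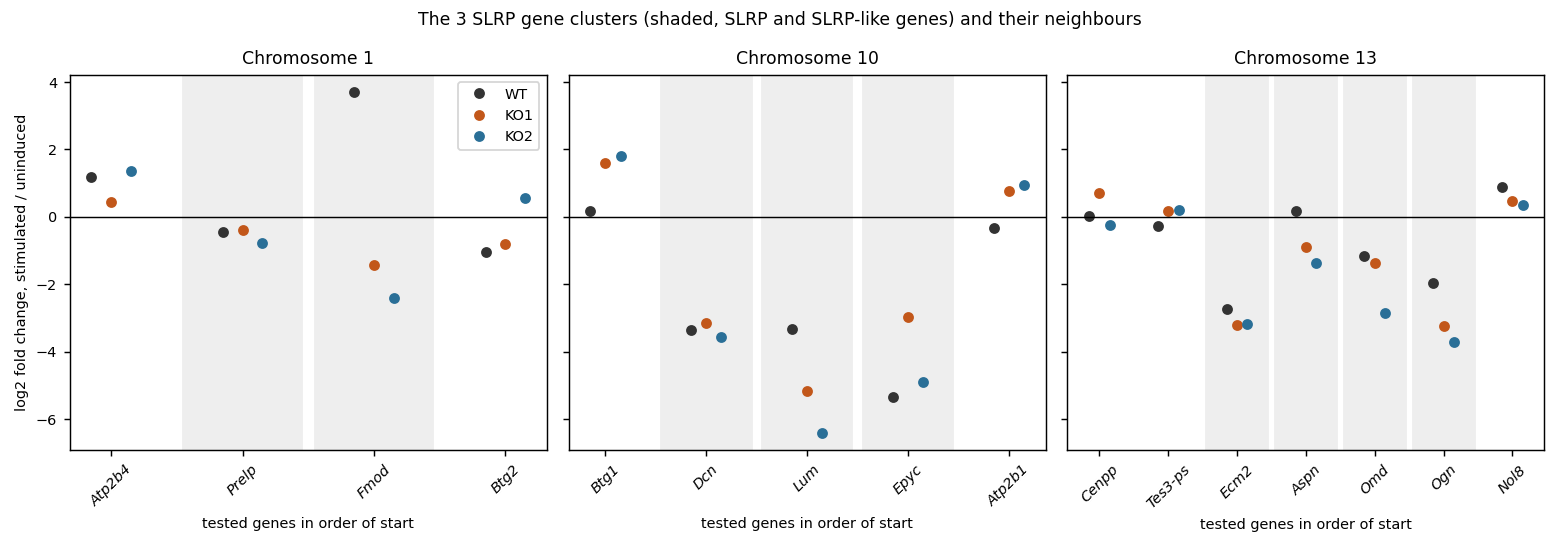
Log2 fold change between stimulated and uninduced cells of the tested genes in and beside the 3 SLRP clusters, in order of their start (not to scale), in WT, KO1 and KO2, with SLRP and SLRP-like genes shaded. All tested genes shaded on chromosome 10 lie at -2.97 or below in each genotype. The value of -2.97 is that of Epyc in KO1, where the stimulated group held 9 counts. The flanking genes there, which start 863 kb before and 1435 kb after the start of Dcn, lie between -0.32 and 1.81.

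Of 9 other SLRP and SLRP-like genes 5 were tested, and all 5 fell in stimulated WT cells (median -2.74, beside -0.04 over all genes), where 13.6% of all genes fell. *Chadl*, a chondroadherin-like collagen-binding protein, fell from 16.5 ± 1.57 to 1.27 ± 0.372 CPM (log2 -3.69 ± 0.14, adjusted p = 4.50e-20). In uninduced clones *Chadl* stood at 83.6 ± 5.02 CPM in KO1 and 233 ± 13.6 CPM in KO2. In stimulated cells 1 of the 5 genes was higher in KO1, *Tsku*, a secreted regulator of growth factors (1.14 ± 0.083, adjusted p = 6.06e-13), and in KO2 *Chadl* was higher (1.19 ± 0.19, adjusted p = 4.52e-06) and *Epyc* lower (-2.49 ± 0.96, adjusted p = 0.0303). That call of *Epyc* rests on 3 counts in the stimulated KO2 group and 24 in the stimulated WT group. Of the 3 other hyalectans, the family of versican, 2 were tested. *Acan* was at 8.76 ± 1.15 CPM in uninduced WT cells and fell on stimulation (log2 -4.57 ± 0.44, adjusted p = 1.54e-09). It had no counts in KO1, where 3 counts over the group would be 0.0522 CPM without and 0.0442 CPM with stimulation, and 6 and 1 counts in uninduced and stimulated KO2.

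Chain-building enzymes were called about as often as other genes in the WT response. Of 27 genes for the linker and chondroitin or dermatan sulfate, 25 were tested, and in WT 3 rose and 2 fell on stimulation (median -0.01), where 6.25% of all genes tested rose and 13.6% fell. *Ust*, a uronyl sulfotransferase, rose by 1.63 ± 0.089 (adjusted p = 6.61e-16) and *B4galt7*, which adds the first galactose of the linker, by 1.37 ± 0.14 (adjusted p = 8.32e-10) on the log2 scale. *Papss2*, which makes the sulfate donor (-1.93 ± 0.063, adjusted p = 2.20e-21), and *Chst15*, a chondroitin sulfotransferase (-1.54 ± 0.17, adjusted p = 3.40e-09), fell. In stimulated cells 3 genes were higher and 4 lower in KO1 than in WT (median -0.11), and 2 were higher and 3 lower in KO2 (median -0.18). Over all genes 9.42% were higher and 9.6% lower in stimulated KO1, and 7.95% higher and 8.94% lower in stimulated KO2. *Csgalnact1*, which starts the chondroitin chain, was higher in both, by 1.87 ± 0.061 (adjusted p = 2.62e-21) in KO1 and 1.53 ± 0.062 (adjusted p = 5.15e-19) in KO2. *Chst15* was higher in KO1 (1.47 ± 0.17, adjusted p = 9.39e-09), where *Pxylp1* (-1.10) and *Papss2* (-1.06) were lower. *Chst7*, another chondroitin sulfotransferase, was higher in KO1 (1.00 ± 0.12, adjusted p = 1.42e-08) and in KO2 (1.14 ± 0.12, adjusted p = 1.53e-09). *Chst15* held 1 count in the 3 stimulated and 5 in the 3 uninduced KO2 libraries, against 282 and 778 in WT.

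Keratan sulfate, the chain of lumican and fibromodulin, showed 1 change common to all groups of clones. Of 8 genes 5 were tested, with 0 higher and 1 lower in the WT response (median -0.77), 2 higher and 0 lower in stimulated KO1 (0.74) and 3 higher and 0 lower in stimulated KO2 (1.17). Over all genes 13.6% fell in WT, and 9.42% and 7.95% were higher in stimulated KO1 and KO2. *Chst1*, a keratan sulfate sulfotransferase, was at 5.03 ± 1.05 and 1.39 ± 0.522 CPM in uninduced and stimulated WT cells, 57.2 ± 2.29 and 19.97 ± 3.82 CPM in KO1 and 40.4 ± 1.26 and 19.4 ± 0.172 CPM in KO2. It fell on stimulation in WT (-1.85 ± 0.21, adjusted p = 1.46e-08) and was higher in both stimulated clones (3.86 ± 0.18, adjusted p = 7.81e-17 in KO1 and 3.81 ± 0.18, adjusted p = 1.70e-16 in KO2). *B4galt4*, a galactosyltransferase of the chain, was higher in KO2 (1.17 ± 0.13, adjusted p = 8.59e-09).

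Of 15 hyaluronan and versican partners 11 were tested, and in WT 6 rose and 1 fell on stimulation (median 1.23), where 6.25% of all genes tested rose and 13.6% fell. *Has2*, the main hyaluronan synthase of fibroblasts, went from 23.6 ± 1.63 to 129 ± 8.68 CPM in WT (log2 2.45 ± 0.072, adjusted p = 1.71e-22), from 70.6 ± 2.96 to 60.4 ± 3.95 CPM in KO1 and from 23.2 ± 1.32 to 27.04 ± 0.553 CPM in KO2. Its response differed from that of WT by -2.68 ± 0.10 (adjusted p = 2.92e-19) in KO1 and -2.23 ± 0.10 (adjusted p = 9.80e-17) in KO2, and stimulated clones were below WT (log2 -1.10 and -2.26), while the response of *Vcan* was larger in both clones. *Hapln4*, a hyaluronan link protein, rose in WT by 2.14 ± 0.12 (adjusted p = 2.91e-15). In stimulated cells 1 gene was higher and 2 lower in KO1 (median -0.33) and 0 higher and 2 lower in KO2 (median -0.09) than in WT, where 19% and 16.9% of all genes were called.

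Of 13 proteases that cut these proteins 9 were tested, with 2 up and 2 down in the WT response (median -0.55), where 6.25% of all genes tested rose and 13.6% fell. The tolloid proteases *Tll1* and *Bmp1*, which remove the propeptide of biglycan, rose in WT by 1.52 ± 0.20 (adjusted p = 3.91e-07) and 1.20 ± 0.041 (adjusted p = 6.30e-21). In stimulated clones 0 were higher and 4 lower in KO1 (median -0.83) and 1 higher and 5 lower in KO2 (median -1.004), where 9.6% and 8.94% of all genes were lower. *Tll1* was lower in both (-2.09 ± 0.21, adjusted p = 2.81e-09 in KO1 and -3.75 ± 0.25, adjusted p = 1.27e-12 in KO2), as was *Adamts5*, a versican-cutting protease (-1.77 ± 0.082, adjusted p = 1.21e-17 and -1.66 ± 0.083, adjusted p = 9.26e-17), and *Mmp2*, a gelatinase, was higher in KO2 (1.06 ± 0.039, adjusted p = 6.97e-20). All 12 ligands and receptors that bind SLRPs were tested, with 3 up and 4 down in the WT response (median -0.15), and 3 higher and 2 lower in each stimulated clone (median 0.14 in KO1 and -0.08 in KO2). Over all genes 19.9% were called in the WT response and 19% and 16.9% in stimulated KO1 and KO2. *Tgfb3* (3.82 ± 0.064, adjusted p = 3.14e-28) and *Tgfb1* (2.08 ± 0.10, adjusted p = 1.11e-17) rose and the Toll-like receptors *Tlr4* (-1.99 ± 0.080, adjusted p = 4.40e-19) and *Tlr2* (-1.83 ± 0.079, adjusted p = 2.13e-18) fell in WT. Stimulated clones were above WT in *Tlr2* (1.64 in KO1 and 2.11 in KO2) and *Tlr4* (1.19 and 1.30) and below it in *Igf1r* (-1.32 and -1.20), with *Tgfb3* lower in KO1 (-1.36) and *Tgfb2* lower in KO2 (-1.21). These counts describe the lists and were not tested as sets.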

How the data were processed

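Gene expression was measured by poly(A) RNA sequencing of 18 libraries, 3 in each of 6 groups of genotype and treatment. The authors mapped reads to GRCm38 (mm10) with HISAT2 and deposited raw counts per gene with gene positions and lengths. The sources used here do not name the counting program, its annotation release or its strand setting.

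The deposited counts were tested with edgeR 4.0.16 under R 4.3.3. Genes were filtered with filterByExpr (minimum count 10), scaled with TMM and fitted with 1 mean per group (glmQLFit, robust, and glmQLFTest). A gene was called at a Benjamini-Hochberg adjusted p below 0.05 over all genes tested and an absolute log2 fold change above 1. CPM were counts per 1000000 of the TMM-scaled library size, and CPM per kb divided them by the deposited gene length. For the 10 genes this length covers all annotated exons, not a single transcript. The procedure was tested on simulated data. Depth ran from 15576685 to 42005596 counts, and floors cover counting error only. All 18 pairs of replicates differed beyond counting error (chi-square per degree of freedom 3.13 to 14.7). Uninduced WT libraries, the reference of several comparisons, agreed least. Their log2 CPM correlated at r = 0.963, 0.969 and 0.983, and those of pairs in the other groups at 0.987 or more. Positions were compared with GENCODE M21, which holds 98.04% of the genes at the same coordinates, and promoters came from RefSeq. Figures used matplotlib 3.10.9.

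The 10 genes, the gene lists and the tests were chosen with earlier results of these data known. Named were all 10 members, Foxs1, the cluster neighbours and, per list, the 2 largest rises and falls with a mean of at least 5 CPM in the WT response and in each stimulated clone against WT. Epyc, Acan, the named marker genes, Chst7 in KO1, the uninduced values of list genes and the Has2 interaction were added after their values were seen. Alternatives were DESeq2 1.42.0, its size factors in edgeR, library totals, no filter, only the groups compared, a replicate block, no fold threshold and each library left out.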

Additional observations from a re-analysis of the deposited data

Results flagged for a closer look

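The response to stimulation differed between a clone and WT in the genes below, by an interaction test in edgeR with Benjamini-Hochberg adjustment and a difference of more than 2-fold. In KO1 the response was lower than in WT for *Fmod*, at a log2 difference of -5.14 (adjusted p = 8.19e-18), for *Lum* at -1.83 (adjusted p = 9.69e-07), for *Ogn* at -1.28 (adjusted p = 1.61e-10) and for *Aspn* at -1.07 (adjusted p = 4.13e-13). It was higher in KO1 for *Podn* by 2.63 (adjusted p = 1.41e-05) and for *Vcan* by 1.25 (adjusted p = 2.62e-07). In KO2 it was lower for *Fmod* at -6.11 (adjusted p = 2.46e-19), for *Lum* at -3.07 (adjusted p = 2.67e-11), for *Ogn* at -1.77 (adjusted p = 9.83e-13), for *Omd* at -1.70 (adjusted p = 3.76e-07) and for *Aspn* at -1.56 (adjusted p = 1.13e-16), and higher for *Vcan* by 1.89 (adjusted p = 1.57e-09). With 1 clone per KO label, the edit and the clone cannot be told apart, and both clones were set against the same WT libraries.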

How the results depend on the processing

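The numbers of genes called out of 10 changed little with the processing, apart from the fold threshold. Without that threshold 10 were called in the response of WT, 10 in uninduced KO1 against WT, 10 in uninduced KO2 against WT, 10 in stimulated KO1 against WT, 10 between uninduced clones and 9 between stimulated clones. Of the 14317 genes tested, 8693, 7657, 7619, 8436, 6039 and 6500 were called in this way in the same comparisons. Leaving out 1 library gave 6 to 7 calls in the response of WT, 5 to 6 in uninduced KO1 against WT, 3 to 4 in stimulated KO1 against WT, 7 to 8 in stimulated KO2 against WT and 3 to 4 between stimulated clones, and the same number as with all libraries in the other 6 comparisons. Directions reversed in 3 cases, none of them a call. The response of Aspn in WT became -0.0396 and the difference in response of Bgn in KO2 -0.0033 with scaling to library totals, and the difference of Lum between stimulated clones became 0.10 without stimulated KO2 replicate 1, with a lowest value of -0.45 over the libraries left out. The cause was not tested. For single genes, 109 of 110 values kept their direction and side of the threshold in DESeq2 and without a filter, 110 with DESeq2 size factors, and 104 with library totals. The fit of only the groups compared kept all 108 values it gave, and it filtered out Podn in stimulated KO2 against WT and Lum between stimulated clones.

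Replicate numbers are shared between groups, but the deviations of same-numbered libraries from their group means correlated by only -0.0390 to 0.0498 over 27 pairs, so the numbers were not taken to pair the samples. With the replicate number as a block the numbers of calls were 6, 7 and 8 in the responses of WT, KO1 and KO2, 5 and 6 in uninduced and 3 and 7 in stimulated KO1 and KO2 against WT, 3 and 3 between the clones and 6 and 6 for the difference in response, and no call changed. Precision was lowest for Podn and Lum in stimulated cells, where clone libraries held as few as 1 and 6 counts.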

Other observations

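The genes whose log2 CPM followed *Bgn*, *Aspn* and *Ogn* most closely over the 18 libraries, the members with the highest mean CPM per kb over all libraries, were sought among 10058 genes that averaged 5 CPM or more. In stimulated cells *Vcan* ranked above *Ogn* in each genotype. For *Bgn* they were *Nabp1* (Pearson r = 0.989), *Lbp* (0.986) and *Acaca* (0.984). For *Ogn* they were *Psme1* (0.981), *Pag1* (0.978) and *Aldh3a1* (0.977), and for *Aspn* *Uhrf1* (0.948), *Man2b1* (0.944) and *Scarb1* (0.943). The libraries fall into 6 groups and share their scaling, so these values are descriptions.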
